A study of Mus musculus with 9 samples.

Results

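The genes described here are 10 that mark the endothelium of brain vessels: Cldn5, Cdh5, Esam, Pecam1, Ly6c1, Flt1, Kdr, Tek, Slco1c1 and Slc2a1. They were taken by symbol from the 13588 entries of the deposited expression table, and all 10 had an entry. Each was followed through 9 libraries of laser-captured mediobasal hypothalamus, each made from the RNA of 1 male mouse. All mice, controls included, were homozygous for a floxed Snord116 allele (B6(Cg)-Snord116tm1Uta/J) on the C57/BL6 background and had been injected on both sides of the mediobasal hypothalamus as adults, 10 weeks before the brains were frozen. The AAV-GFP group (n = 3) received an AAV with GFP behind a CMV promoter. The AAV-Cre mice (n = 6) received an AAV with Cre behind a CAG promoter, so that Cre was not limited to a cell type. The vectors differed in promoter and in titre, which the authors give as higher for Cre, as well as in cargo. Effects of these differences cannot be told apart. Regions were excised where Cre was stained in neighbouring sections, with matched regions in AAV-GFP mice. The AAV-Cre mice fall into subsets of 3 by weight gain after surgery. The sample titles give the word obese to the mice that the weight labels call nonobese, and leave it out for the others. The weight label names the subsets here, as obese-labelled and nonobese-labelled mice, and a number after a group name is the mouse's replicate number.

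Endothelial cells line every vessel of the brain and form the blood-brain barrier, in which tight junctions seal the gaps between cells and selective transporters carry glucose, thyroid hormone and other solutes across. Their growth and stability are set through receptor tyrosine kinases for VEGF and for the angiopoietins. In the mediobasal hypothalamus the vessels of the median eminence are fenestrated and lack this barrier, while those of the neighbouring nuclei have it. The 10 genes cover these roles: Cldn5, Cdh5, Esam and Pecam1 encode proteins of endothelial junctions, Ly6c1 a surface protein, Flt1, Kdr and Tek receptors, and Slco1c1 and Slc2a1 transporters.

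The values are signal, the reads of a gene per 1000000 after scaling of each library by edgeR's TMM method. The reads on listed entries numbered 3929672 to 5766994 per library, and a signal of 0.525 to 0.786, depending on the library, stood for 3 reads, the floor used here for counting error alone. Cre had a signal of 235 to 8557 in the 6 AAV-Cre libraries and of 0 to 0.957 in AAV-GFP, and Gfp a signal of 62.7 to 79.0 in AAV-GFP and 0 in AAV-Cre. In 2 libraries, those of obese-labelled mice 1 and 3, immune genes stood apart: the summed signal of 15 interferon response genes was 5649 and 5037 there and 197 to 399 in the other 7 libraries. Cre was lowest in these same libraries among the AAV-Cre mice, at 1330 and 235. Results below that rest on the obese-labelled subset are given with these libraries and, where stated, without them.

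The 10 genes were all detected, at 0 to 69.1 signal, and none had an FDR under 0.1 by limma in any comparison. Their summed signal was 139 to 173 in the 3 AAV-GFP mice, 217 to 247 in the 3 obese-labelled mice and 140 to 171 in the 3 nonobese-labelled mice. In the obese-labelled subset the sum thus lay above every AAV-GFP mouse, mouse 2 included, at 217. That mouse was lower than mice 1 and 3 in summed immune genes. Its interferon sum, 337, lay within the AAV-GFP range, but its sum of 7 plasma cell genes, 180, lay above the 45.1 to 58.1 of AAV-GFP. Single genes did not all follow the sum of the 10. Slco1c1 separated all 3 groups, Pecam1 stood above AAV-GFP in the obese-labelled mice alone, Kdr stood above AAV-GFP in the nonobese-labelled mice, and the remaining 7 genes overlapped in every comparison. In a bulk sample of this kind, fewer endothelial cells and less RNA per cell cannot be told apart.

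**Figure D1:**
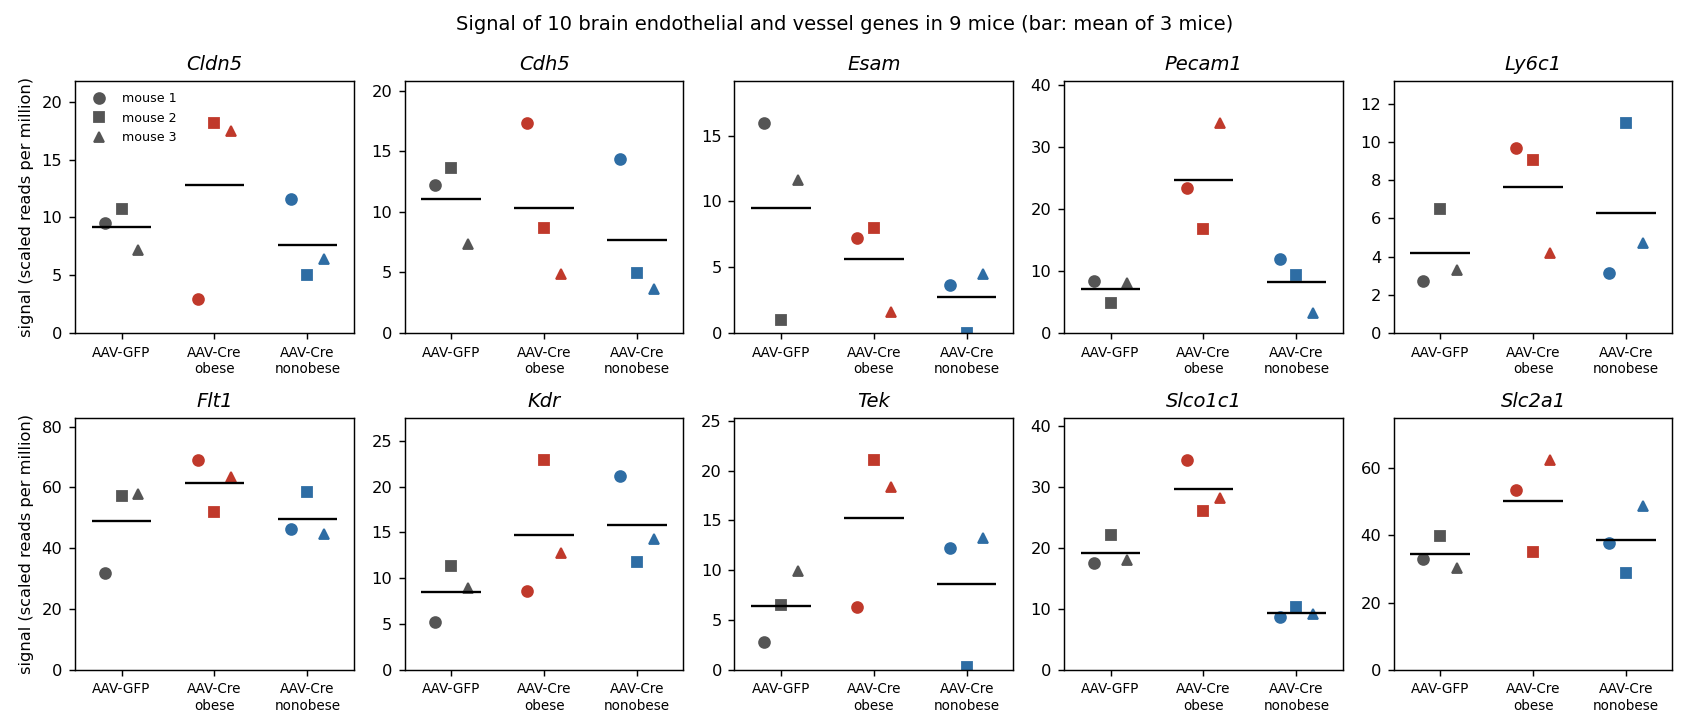
Signal (reads per 1000000 after TMM scaling, linear axis from 0) of each of the 10 genes in each mouse, with a point shape for the replicate number and a bar at the mean of 3 mice. Slco1c1 has 3 separate groups, at 8.57 to 10.2, 17.5 to 22.02 and 26.1 to 34.4, while for most other genes the groups overlap.

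Levels were compared between genes per kb of annotated exons. In AAV-GFP mice Slc2a1, the glucose carrier of the barrier, had the highest signal per kb, at 9.80 ± 1.41 (SD, n = 3), followed by Cldn5, the main claudin of brain endothelium, at 6.45 ± 1.27. Slco1c1, Flt1 and Esam followed at 3.70 ± 0.478, 3.62 ± 1.10 and 3.32 ± 2.69 signal per kb, and their ranges over mice did not separate them. Cdh5 (2.63 ± 0.777), Ly6c1 (2.495 ± 1.21), Tek (1.36 ± 0.760), Pecam1 (1.146 ± 0.328) and Kdr (0.940 ± 0.338) completed the order. From Slco1c1 downwards, neighbours in this order differed by less than the larger of their SDs. In the obese-labelled mice Slc2a1 and Cldn5 again came first and second, at 14.4 ± 4.01 and 9.06 ± 6.07 signal per kb. Pecam1 moved from the ninth place to the sixth, at 3.97 ± 1.39. In the nonobese-labelled mice Slco1c1 was seventh, at 1.80 ± 0.160, against the third place in the other 2 groups. Exon length in the annotation need not be the length expressed, so that the order between genes carries an error the SD does not show.

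**Figure D2:**
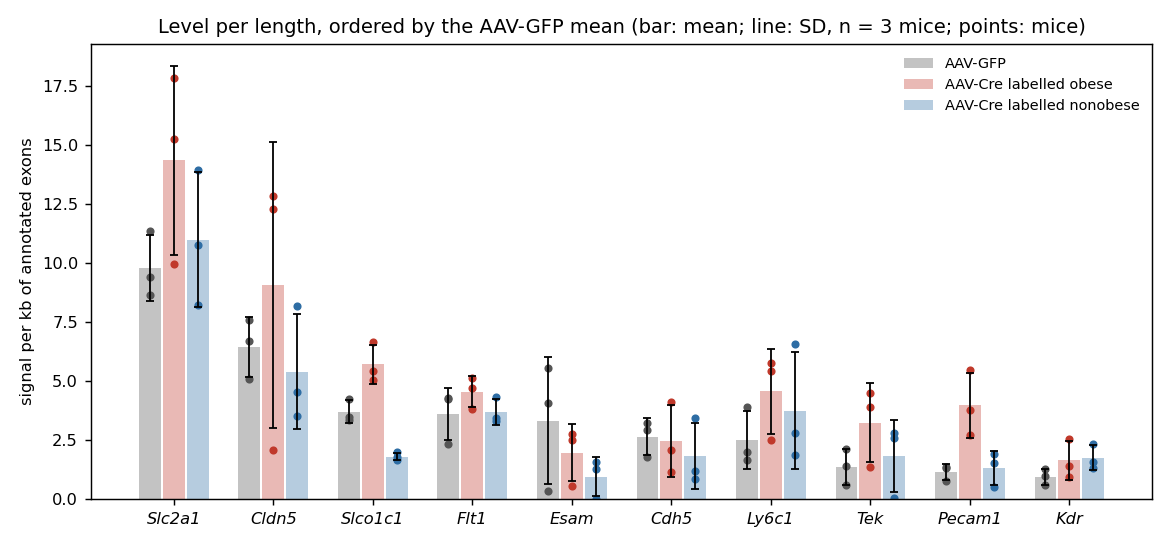
Signal per kb of annotated exons for each gene, ordered by the AAV-GFP mean, with bars at the mean, lines for the SD (n = 3) and points for mice. Slc2a1 leads in all 3 groups, and Slco1c1 is the gene whose bars differ most clearly between groups, at 3.70, 5.70 and 1.80.

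The junction genes were counted at low depth and varied widely between mice. Cldn5 (ENSMUSG00000041378, chromosome 16 from 18776847 to 18778262 of GRCm38, 1 exon) had a signal of 9.47, 10.7 and 7.19 in AAV-GFP mice 1 to 3. In the obese-labelled mice it was 2.92, 18.2 and 17.4, and in those labelled nonobese 11.5, 4.98 and 6.40. Obese-labelled mouse 1 was thus below every other mouse and mice 2 and 3 were above every other mouse, so the groups overlapped. The log2 FC against AAV-GFP was 0.15 (SE 0.676, FDR = 0.966 by limma) in obese-labelled mice and −0.29 (SE 0.676, FDR = 0.999) in those labelled nonobese.

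Cdh5 (ENSMUSG00000031871, chromosome 8 from 104101625 to 104144511), the cadherin of endothelial adherens junctions, had a signal of 12.2, 13.6 and 7.38 in AAV-GFP. It was 17.3, 8.62 and 4.88 in obese-labelled mice and 14.3, 4.98 and 3.63 in nonobese-labelled mice. In each AAV-Cre subset mouse 1 lay above the AAV-GFP mice and mouse 3 below them. The log2 FCs were −0.21 (SE 0.662, FDR = 0.947) and −0.64 (SE 0.662, FDR = 0.999).

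Esam (ENSMUSG00000001946, chromosome 9 from 37528078 to 37538319), an adhesion molecule of tight junctions that platelets also carry, was the least steady of the 10. Its signal was 16.0, 0.957 and 11.7 in AAV-GFP, which came from 64, 5 and 60 reads. It was 7.20, 7.94 and 1.63 in obese-labelled mice and 3.67, 0 and 4.48 in nonobese-labelled mice. Nonobese-labelled mouse 2 had 0 reads, which allows a signal of up to 0.786. The log2 FC for nonobese-labelled mice was −1.34 (95% CI −3.25 to 0.57, FDR = 0.999), so the interval holds changes of either direction.

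Pecam1 (ENSMUSG00000020717, chromosome 11 from 106654217 to 106750628), which encodes CD31, an adhesion molecule of endothelial cells, platelets and leukocytes, showed the largest log2 FC of the 10 genes against AAV-GFP. Its signal was 8.48, 4.79 and 8.16 in AAV-GFP. In obese-labelled mice it was 23.4, 16.8 and 33.9, so that every mouse of the subset lay above every AAV-GFP mouse. In nonobese-labelled mice it was 11.9, 9.43 and 3.20, overlapping with AAV-GFP. The mean was 3.46 times that of AAV-GFP in the obese-labelled mice, with a log2 FC of 1.64 (SE 0.595, 95% CI 0.41 to 2.87). This had an unadjusted p of 0.0110 and an FDR of 0.320 in limma, and an exact permutation test gave p = 0.10 (2-sided, n = 3 and 3, which cannot give less). Mouse 2, which was lower in summed immune genes than mice 1 and 3, had the lowest value of the subset. With mouse 2 as the single library of its subset the log2 FC was 1.16. Between the subsets the log2 FC of Pecam1 was −1.58 (SE 0.595, FDR = 0.290), and the nonobese-labelled mice lay below all obese-labelled mice.

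Ly6c1 (ENSMUSG00000079018, chromosome 15 from 75044018 to 75048830), a surface protein that brain endothelium and some leukocytes carry, had few reads, 11 to 43 per library. Its signal was 2.74, 6.51 and 3.30 in AAV-GFP, 9.67, 9.08 and 4.18 in obese-labelled mice, and 3.15, 11 and 4.69 in nonobese-labelled mice. The groups overlapped, and the log2 FC was 0.73 (SE 0.731, FDR = 0.797) and 0.41 (SE 0.731, FDR = 0.999). Its value is also uncertain because Ly6c2 (ENSMUSG00000022584, chromosome 15 from 75108158 to 75111970), a gene of monocytes, is nearly identical. The coding sequences, both 396 bases, differ at 9 positions (97.7% identity), and 32.8% of the stretches of 50 bases (the read length) in Ly6c1 transcripts also occur in Ly6a, Ly6c2 or Ly6i. The first 150 coding bases are shown to make the overlap visible, read from the GENCODE transcripts of GRCm38 on the coding strand, with the 6 bases that differ in capitals.
Ly6c1: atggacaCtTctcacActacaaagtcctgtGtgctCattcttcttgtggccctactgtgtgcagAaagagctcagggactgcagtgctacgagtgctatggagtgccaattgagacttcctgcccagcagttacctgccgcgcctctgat
Ly6c2: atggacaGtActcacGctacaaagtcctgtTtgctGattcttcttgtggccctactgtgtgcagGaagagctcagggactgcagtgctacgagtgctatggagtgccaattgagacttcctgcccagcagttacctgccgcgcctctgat
After these differences the sequences run without a mismatch to the end of the stretch shown, so a read from there has no base that tells the genes apart. Ly6c2 had 0 reads in 7 libraries and a signal of 34.0 and 24.9 in obese-labelled mice 1 and 3, the libraries high in immune genes. How much of the Ly6c1 signal in those libraries came from Ly6c2 was not tested.

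Of the receptors, Flt1 (ENSMUSG00000029648, chromosome 5 from 147561604 to 147726011), which encodes VEGF receptor 1, was the most deeply counted, with 127 to 307 reads per library. Its signal was 31.7, 57.3 and 57.7 in AAV-GFP, 69.1, 51.7 and 63.4 in obese-labelled mice, and 46.2, 58.4 and 44.6 in nonobese-labelled mice. AAV-GFP mouse 1 was below the other 8 mice, and the groups overlapped. The log2 FC was 0.36 (95% CI −0.24 to 0.97, FDR = 0.728) in obese-labelled mice and 0.07 (95% CI −0.54 to 0.67, FDR = 0.999) in nonobese-labelled mice.

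Kdr (ENSMUSG00000062960, chromosome 5 from 75932827 to 75978458) encodes VEGF receptor 2, through which VEGF drives endothelial growth. Its signal was 5.24, 11.3 and 8.93 in AAV-GFP, 8.55, 22.9 and 12.8 in obese-labelled mice, and 21.2, 11.8 and 14.3 in nonobese-labelled mice. The 3 nonobese-labelled mice lay above all AAV-GFP mice, by a margin of 11.8 against 11.3 at the closest. The log2 FC was 0.84 (SE 0.561, FDR = 0.999) in nonobese-labelled mice, 0.68 (SE 0.561, FDR = 0.736) in obese-labelled mice, and 0.76 (SE 0.481, FDR = 0.999) in all 6 AAV-Cre mice.

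Tek (ENSMUSG00000006386, chromosome 4 from 94739289 to 94874976) encodes TIE2, the angiopoietin receptor. Its signal was 2.74, 6.51 and 9.90 in AAV-GFP and 6.30, 21.1 and 18.4 in obese-labelled mice. In nonobese-labelled mice it was 12.2, 0.262 and 13.2. The value of 0.262 is 1 read, in mouse 2, the library that also had 0 reads of Esam, while the other mice of its subset lay above all AAV-GFP mice. The log2 FC for nonobese-labelled mice was −0.12 (SE 0.821, FDR = 0.999), and 1.03 without mouse 2. Its sign also changed with mouse 2 kept, to 0.22 without AAV-GFP mouse 3 and to 0.43 by edgeR's quasi-likelihood test on the recovered reads.

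The transporters were, with Flt1, the steadiest of the 10. Slc2a1 (ENSMUSG00000028645, chromosome 4 from 119108711 to 119137983), which encodes GLUT1, had a signal of 32.9, 39.8 and 30.3 in AAV-GFP. It was 53.5, 35.0 and 62.5 in obese-labelled mice and 37.8, 28.8 and 48.9 in nonobese-labelled mice. The 2 highest values were those of obese-labelled mice 1 and 3, and mouse 2 lay within the AAV-GFP range. The log2 FC was 0.51 (95% CI −0.17 to 1.18, FDR = 0.642) in obese-labelled mice, and 0.03 with mouse 2 as the single library of its subset. In nonobese-labelled mice it was 0.14 (95% CI −0.54 to 0.81, FDR = 0.999). Exons of Slc2a1 overlap 105 bases of Gm12868 on the opposite strand, and whether the reads were counted by strand is not given in the sources used here.

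Slco1c1 (ENSMUSG00000030235, chromosome 6 from 141524368 to 141570177) encodes OATP1C1, the carrier that takes thyroxine across the blood-brain barrier and that astrocytes also make. Its signal was 17.5, 22.02 and 18.1 in AAV-GFP, from 70, 115 and 93 reads. In obese-labelled mice it was 34.4, 26.1 and 28.1, and in nonobese-labelled mice 8.57, 10.2 and 9.18. The 3 groups did not overlap: every mouse labelled nonobese was below every AAV-GFP mouse, and every mouse labelled obese above. Among the 13506 entries tested, 26 (0.193%) had 3 groups apart in this order, and 25 (0.185%) in the reverse order. The means were 19.2 ± 2.48 (SD, n = 3) in AAV-GFP, 29.5 ± 4.34 in obese-labelled mice and 9.32 ± 0.830 in nonobese-labelled mice.

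Against AAV-GFP the log2 FC of Slco1c1 was 0.60 (SE 0.442, FDR = 0.699) in obese-labelled mice and −0.96 (SE 0.442, unadjusted p = 0.0392, FDR = 0.999 by limma) in nonobese-labelled mice. Over all 6 AAV-Cre mice, these opposite differences gave a log2 FC of −0.18 (SE 0.471, FDR = 0.999). Between the subsets the mean in nonobese-labelled mice was 0.316 times that in obese-labelled mice, with a log2 FC of −1.56 (SE 0.442, 95% CI −2.47 to −0.65, unadjusted p = 0.00170, FDR = 0.126). The exact permutation test gave p = 0.10 for each of the 3 pairs of groups (2-sided, n = 3 against 3, the smallest p possible). The side of the threshold of 0.1 on which the difference between the subsets fell depended on the test. On the recovered reads its FDR was 0.104 by edgeR's quasi-likelihood test, which called 1.04% of all entries, 0.0225 by edgeR's likelihood ratio test, which called 2.95%, and 0.0104 by DESeq2, which called 2.88%. By limma the FDR was 0.0567 without obese-labelled mouse 2, 0.212 to 0.362 without each of the other 5 AAV-Cre mice in turn, and 0.295 with only these 2 groups in a fit. With mouse 2 as the single library of its subset the log2 FC was −1.40, a value that rests on 1 obese-labelled mouse. The part of the libraries high in immune genes in this difference was not tested.

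RefSeq promoters were found for 7 of the 10 genes, all but Pecam1, Cdh5 and Esam, and that of Slco1c1 is printed as the gene whose groups separated. It spans 250 bases before to 50 after the start, on the plus strand at chr6:141524104-141524403 of GRCm38.p6, with the word TATAAA in capitals.
Slco1c1: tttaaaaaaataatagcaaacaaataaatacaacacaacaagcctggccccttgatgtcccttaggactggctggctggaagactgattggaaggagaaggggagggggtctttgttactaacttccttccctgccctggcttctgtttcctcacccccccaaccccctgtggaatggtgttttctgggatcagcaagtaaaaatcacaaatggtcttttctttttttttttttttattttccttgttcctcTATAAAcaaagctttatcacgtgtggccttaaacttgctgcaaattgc
This word was picked out after the promoters were seen. It lies just after the annotated start, which is not where a TATA box sits. TATAAA, searched on both strands, was in a promoter of 4 of the 7 genes (Flt1, Ly6c1, Slc2a1 and Slco1c1). Ly6c1 had 2 promoters, of which 1 held it. Of all 32851 promoters 13.6% held it, a share counted by promoter and not by gene. The promoter of Tek held the ETS word CAGGAA on the reverse strand at 2 places, here in capitals as TTCCTG, in chr4:94739039-94739338 on the plus strand.
Tek: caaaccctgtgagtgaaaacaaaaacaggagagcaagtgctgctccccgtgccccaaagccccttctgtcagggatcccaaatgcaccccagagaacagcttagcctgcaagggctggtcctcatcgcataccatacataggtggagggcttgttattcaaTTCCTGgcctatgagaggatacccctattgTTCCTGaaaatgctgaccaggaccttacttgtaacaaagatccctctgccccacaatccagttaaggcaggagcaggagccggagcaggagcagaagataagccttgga
ETS factors are known regulators of endothelial genes, and this word was in a promoter of 1 of the 7 genes, against 30.6% of all promoters. The word CTTTGA is a form of the TCF/LEF sites that Wnt signalling in brain endothelium acts through. It was in a promoter of 0 of the 7 genes, against 16.0% of all promoters. Only the exact letters of each word were searched, so other forms of these sites were not counted, and their absence is not shown. These words are short and are descriptions of the letters in a window, not of sites in use.

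In the comparison of obese-labelled mice with AAV-GFP, 0 of the 10 genes were called at an FDR under 0.1, against 0.555% of all entries tested. At an unadjusted p under 0.05 there was 1 gene (Pecam1), against 9.88% of entries, and 2 genes (Pecam1 and Slco1c1) had groups that did not overlap, against 14.5% of entries. Log2 FCs were above 0 for 8 of the 10, and their median was 0.55, against −0.04 over all entries tested. In nonobese-labelled mice against AAV-GFP, 0 of the 10 were called (0.0148% of entries), 1 had a p under 0.05 (Slco1c1, 2.27% of entries) and 2 did not overlap (Kdr higher and Slco1c1 lower, 9.72% of entries). Log2 FCs were above 0 for 5 of the 10, with a median of −0.03 beside −0.02 over all entries.

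In all 6 AAV-Cre mice against AAV-GFP, 0 of the 10 were called (0.0222% of entries), 0 had a p under 0.05 (3.14%) and 0 had groups that did not overlap (2.01%). The median log2 FC was 0.27. Between the subsets, 0 of the 10 were called (0.948% of entries), 2 had a p under 0.05 (Slco1c1 and Pecam1, 11.4%), and the same 2 did not overlap (13.3%), both lower in nonobese-labelled mice. Log2 FCs were below 0 for 9 of the 10, with Kdr as the exception at 0.15 (SE 0.561), and the median was −0.43, against 0.02 over all entries. The comparisons with AAV-GFP share their control mice, and each comparison is given by its own values for that reason. The counts at an FDR under 0.1, at an unadjusted p under 0.05 and of groups that did not overlap each lay within about 1 gene of what the share over all entries gives for 10 genes. On the recovered reads, the quasi-likelihood test of edgeR, its likelihood ratio test and DESeq2 also called 0 of the 10 in the comparisons with AAV-GFP, and 0, 1 and 1 (Slco1c1) between the subsets.

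**Figure D3:**
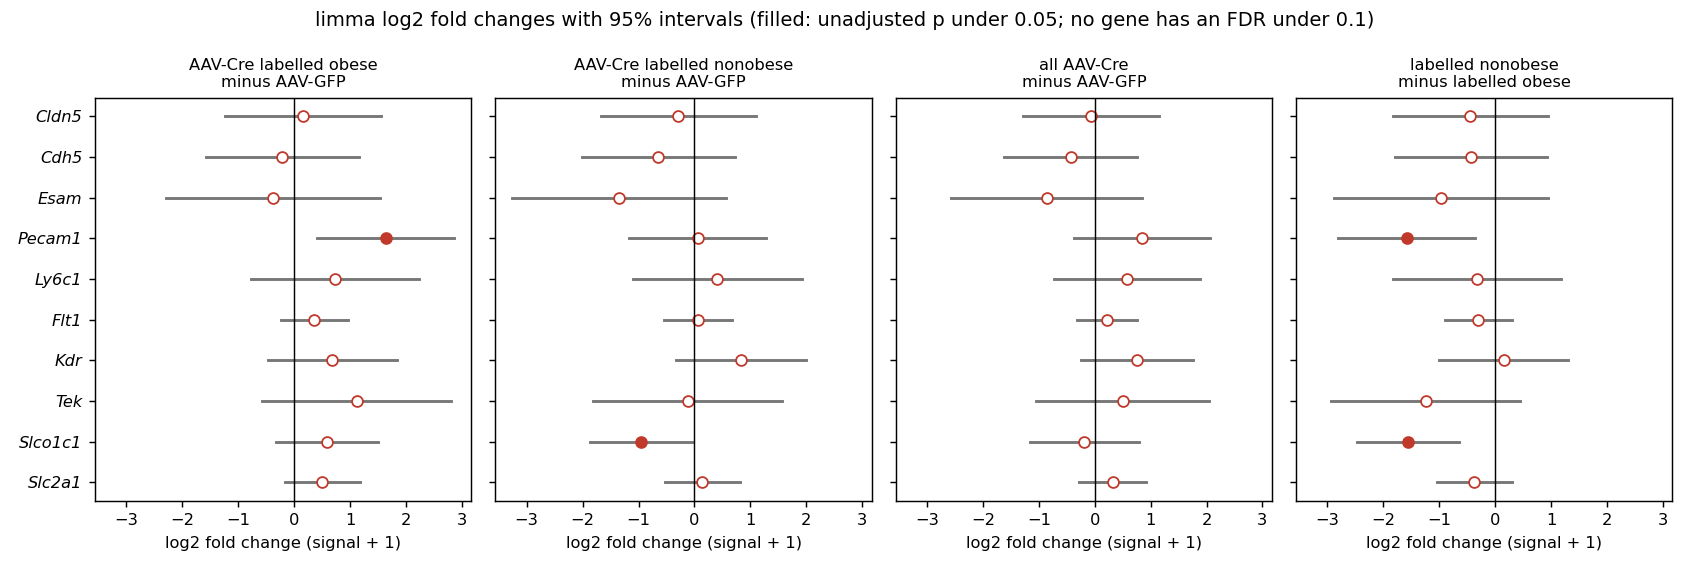
Log2 fold changes on the log2(signal + 1) scale with 95% intervals from limma for the 10 genes in the 4 comparisons, filled where the unadjusted p is under 0.05. Intervals are widest for Esam and Tek and narrowest for Flt1, and 0 of the 10 genes had an FDR under 0.1 in any panel.

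The intervals of limma pool the spread between mice of a gene with that of genes at a like level, through the variance trend. For Slco1c1 between the subsets the SE was 0.442 (FDR = 0.126 by limma) with the trend and 0.234 (FDR = 0.101) without it. Over the 30 combinations of gene and group, the coefficient of variation (CV) between mice was 8.90% to 87.9%, with a median of 37.7%, while counting reads alone gives 6.09% to 26.7%, with a median of 14.9%. The CV between mice was above the counting error in 29 of the 30. Slco1c1 came closest to counting error, with a median CV over groups of 12.9% against 10.4%, and in nonobese-labelled mice its CV of 8.90% was below the 15.1% of counting. Esam, at 81.1% against 20.1%, Cdh5, at 62.1% against 14.9%, and Tek, at 56.1% against 15.0%, were the most variable. Across the 9 libraries the 45 pairs of genes had correlations of log2(signal + 1) from −0.46 to 0.61, with a median Pearson r of 0.17 (median Spearman rho 0.13), and 31 were above 0. The highest was between Slco1c1 and Pecam1, both highest in the obese-labelled mice, and the lowest between Ly6c1 and Esam. These are descriptions over 9 libraries that share a scaling.

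**Figure D4:**
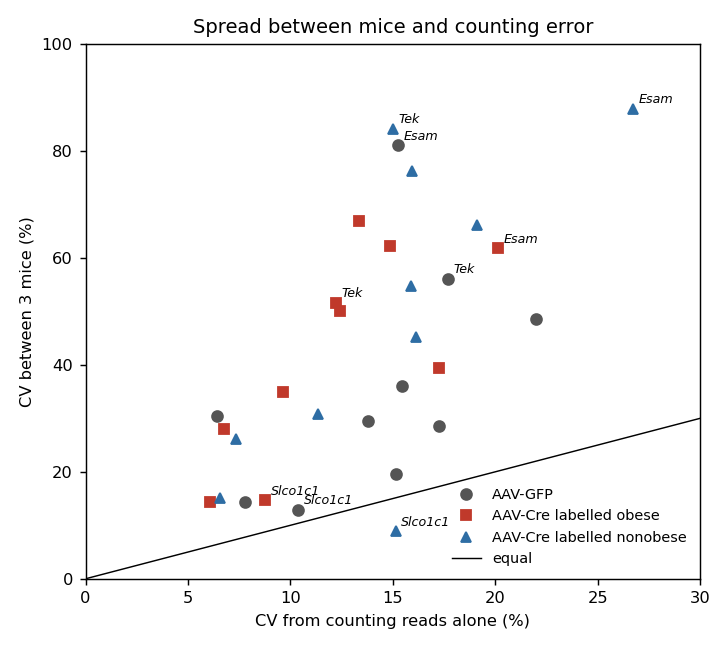
CV between the 3 mice of a group (vertical axis, %) against the CV that counting reads alone would give (horizontal axis, %) for each gene and group, with a line where they are equal. Only Slco1c1 in nonobese-labelled mice lies below the line, and Esam and Tek lie farthest above it.

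By the mean of the 10 genes, each standardised on the log2 scale, the obese-labelled mice had 0.51, 0.64 and 0.52, the AAV-GFP mice −0.49, 0.01 and −0.18, and the nonobese-labelled mice 0.02, −0.63 and −0.39. Of 11863 other entries with a mean signal of at least 5, those that followed this mean most closely over the 9 libraries were Zfp652 (r = 0.95), Cd44 (0.95), Thbs2 (0.95), Dapp1 (0.95), Trh (0.94), Trp53bp2 (0.94), Erbin (0.93), Rpl4 (0.93), Lgi4 (0.93) and Ftsj3 (0.92). Cd44, an adhesion receptor for hyaluronan, had a signal of 58.0, 24.1 and 46.0 in obese-labelled mice and of 0 to 7.28 in the other 6 mice. Trh, the hypothalamic releasing hormone of the thyroid axis, had 30.6, 30.2 and 69.5 in obese-labelled mice and 1.57 to 13.6 in the others. These are the extremes of many correlations over 9 points, and Cd44 and Trh were singled out after their values were seen.

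Of 94 genes in 7 other vessel lists, Efnb2 and Vcam1 had an FDR under 0.1, both in obese-labelled mice against AAV-GFP (0.555% of all entries). There 8 of the 94 had an unadjusted p under 0.05 by limma (9.88% of entries). In the other 3 comparisons limma called 0 of the 94. At an unadjusted p under 0.05 there were 2 in nonobese-labelled mice (2.27% of entries), 2 in all AAV-Cre mice (3.14%) and 14 between the subsets (11.4%). On the recovered reads edgeR's quasi-likelihood test called 2 of the 94 between the subsets (1.04% of entries). Efnb2, the ephrin ligand of arterial endothelium that neurons also make, had a signal of 62.1, 41.7 and 56.7 in AAV-GFP, 20.7, 23.1 and 11.4 in obese-labelled mice, and 46.0, 32.5 and 53.1 in nonobese-labelled mice. It fell in the obese-labelled mice by 1.53 on the log2 scale (SE 0.355, FDR = 0.0563), and all 3 lay below the 6 other mice. Vcam1, the leukocyte adhesion molecule that inflamed endothelium puts on its surface, had 11.97, 16.9 and 16.1 in AAV-GFP, 72.4, 24.5 and 102.0 in obese-labelled mice, and 18.4, 14.9 and 17.7 in nonobese-labelled mice. It rose in the obese-labelled mice by 1.87 (SE 0.451, FDR = 0.0716). Its higher values were those of mice 1 and 3, and with mouse 2 as the single library of its subset the log2 FC was 0.69 (FDR = 0.715), and that of Efnb2 −1.16 (FDR = 0.297). Neither kept its call when any AAV-GFP mouse, or obese-labelled mouse 1 or 3, was left out (FDR 0.126 to 0.421).

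Few genes of these lists were called. Of 16 tested genes of the VEGF and angiopoietin pathway, 11 had a log2 FC above 0 in obese-labelled mice (median 0.14), and 6 in nonobese-labelled mice (median −0.08). Of 20 further genes of endothelial identity, 14 were above 0 in obese-labelled mice (median 0.27) and 6 in nonobese-labelled mice (median −0.22), with 0 called. Their summed signal was 344 and 396 in obese-labelled mice 1 and 3, 212 in mouse 2 and 219 to 228 in AAV-GFP. Of 21 genes of barrier junctions and transport, 15 and 8 were above 0 (medians 0.20 and −0.17), and 19 of the 21 were below 0 between the subsets (median −0.37). They summed to 710 and 882 in obese-labelled mice 1 and 3, and to 587 in mouse 2, within the 529 to 626 of AAV-GFP. Of 13 genes of the Wnt programme that maintains the barrier, 3 and 5 were above 0 (medians −0.23 and −0.12). Pericyte and smooth muscle genes had 6 and 1 of 12 above 0 (medians 0.03 and −0.14), and genes of perivascular fibroblasts and matrix 4 and 1 of 8 (medians 0.01 and −0.57). The pericyte and smooth muscle genes summed to 325, 107 and 236 in nonobese-labelled mice 1 to 3, beside 181 to 240 in AAV-GFP. Those of perivascular fibroblasts and matrix summed to 185, 82.5 and 154, beside 156 to 208, so mouse 2 was lowest in both lists. Of 4 genes of activated or fenestrated endothelium, 3 were above 0 in obese-labelled mice (median 1.57), with Vcam1 called. They summed to 148 and 201 in obese-labelled mice 1 and 3, and to 38.6 in mouse 2, within the 29.5 to 47.0 of AAV-GFP.

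Other cells that carry these genes or lie beside vessels were read from marker lists. Erythrocyte genes, a sign of blood left in the vessels, had a summed signal of 19.3 to 40.1 in AAV-GFP, 17.3 to 38.6 in obese-labelled mice and 31.2 to 42.9 in nonobese-labelled mice, with 0 of 5 genes called. The summed signal of 9 microglia and macrophage genes was 452 and 375 in obese-labelled mice 1 and 3 and 100 to 146 in the other 7 libraries. For 11 genes of T cells, B cells and monocytes it was 360 and 445 in these 2 mice and 21.6 to 51.7 in the others. In AAV-GFP 3 of the 11 were at 0 (Cd8b1, Cd79a and Ly6c2), and in nonobese-labelled mice 6, the T cell genes Cd3e, Cd3g and Cd8a among them. For 7 plasma cell genes the sum was 4744 and 9155 in mice 1 and 3, 180 in obese-labelled mouse 2 and 45.1 to 183 elsewhere. Pecam1 and Ly6c1 are also leukocyte genes, and the part of leukocytes in their values was not tested. For Pecam1 the value of obese-labelled mouse 2, 16.8, was above all AAV-GFP mice. In that library the T cell, B cell and monocyte list summed to 51.7, beside 41.4 as the highest AAV-GFP value. The plasma cell list summed to 180 there, beside 58.1, while the microglia and interferon sums, 143 and 337, lay within the AAV-GFP ranges. Astrocytes, which make Slco1c1 too, had a summed signal of 2639 to 3300 over 8 genes in obese-labelled mice, 2247 to 2694 in AAV-GFP and 2110 to 2760 in nonobese-labelled mice. Slc1a2, the highest of the 8, was 1173 to 1573 in nonobese-labelled mice and 1274 to 1604 in AAV-GFP, and so overlapped. Aldh1l1 was 34.0 to 54.8 in obese-labelled mice, 16.5 to 31.4 in AAV-GFP and 19.4 to 20.6 in nonobese-labelled mice. In obese-labelled mice against AAV-GFP, 4 of the 8 did not overlap and were higher, and 1 was lower (14.5% of all entries). For nonobese-labelled mice against AAV-GFP it was 0 of the 8 (9.72%). Between the subsets 3 were lower and 1 higher in nonobese-labelled mice (13.3%). Of the 8, Gfap and Aqp4 were called, both higher in obese-labelled mice than in AAV-GFP and both lower in nonobese-labelled than in obese-labelled mice. Gfap, the filament protein that reactive astrocytes raise, had a signal of 369, 130 and 640.1 in obese-labelled mice, 10.1 to 83.0 in AAV-GFP and 17.7 to 60.0 in nonobese-labelled mice. Its log2 FC was 3.03 (SE 0.554, FDR = 0.0119 by limma) against AAV-GFP. Slco1c1 had its lowest value of the subset, 26.1, in obese-labelled mouse 2, where Gfap was also lowest, and the part of astrocytes in the Slco1c1 values was not tested. Tanycytes, which line the floor of the ventricle, had a summed signal over 5 genes of 21.2 to 62.4 in AAV-GFP, 34.4 to 81.9 in obese-labelled mice and 22.6 to 53.7 in nonobese-labelled mice, with 0 called. Genes of mediobasal hypothalamic neurons (8 of 9 listed had an entry) summed to 48.1 in obese-labelled mouse 3, 111 in AAV-GFP mouse 3 and 203 to 498 in the other 7 libraries. Libraries of like sum still differed in single genes of this list. Nr5a1 was at 0 in AAV-GFP mouse 3, obese-labelled mice 1 and 3 and nonobese-labelled mouse 3, and at 15.2 to 46.1 in the others. Fezf1 was 0 to 3.63 in those same libraries and 12.1 to 52.6 in the others. The part of the dissection in the values of the 10 genes was not tested.

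**Figure D5:**
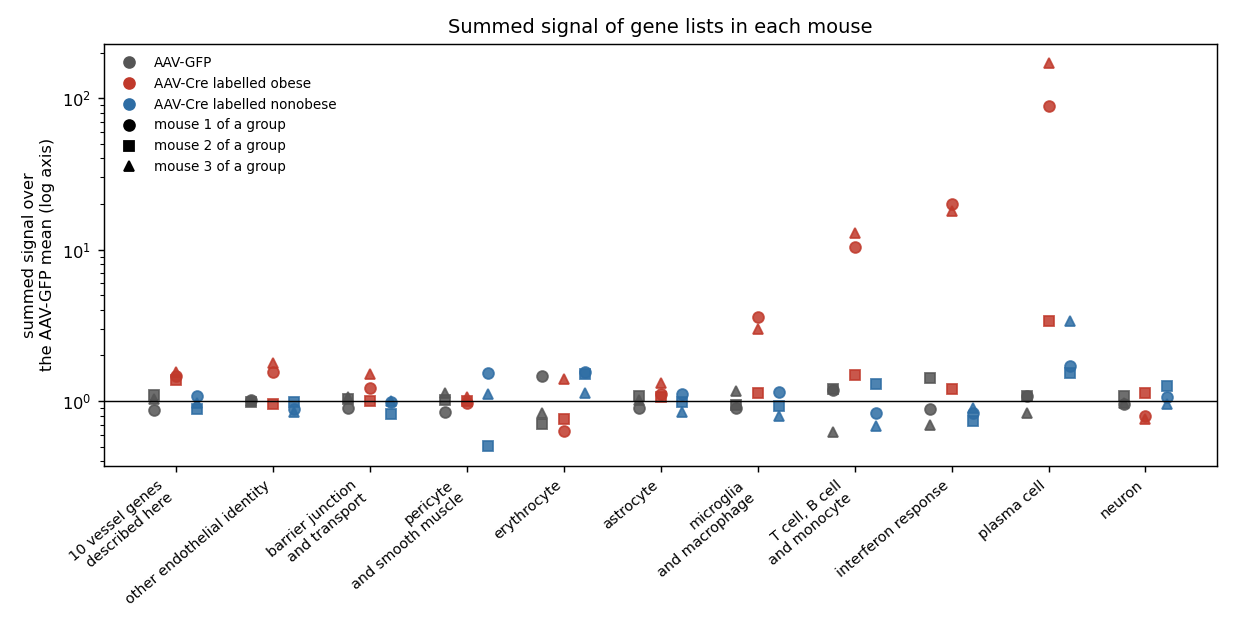
Summed signal of each gene list in each mouse over the mean of the 3 AAV-GFP mice, on a log axis, with colour for the group and shape for the replicate number. The 10 genes lie at 1.37 to 1.56 in all 3 obese-labelled mice, while the microglia, leukocyte, interferon and plasma cell lists are highest in obese-labelled mice 1 and 3.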

How the data were processed

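RNA of laser-captured mediobasal hypothalamus from 9 mice was sequenced, 1 library per mouse. Reads of 50 bases were aligned by the authors to GRCm38 with TopHat (2.0.11 in the submitters' processing notes, where CASAVA 1.7, HTSeq, edgeR and limma also appear). The values they deposited are signal: reads on a gene per 1000000, over a library size that edgeR's TMM factor had rescaled. They sum to 954378 to 1046542 per library, not to the same total as plain CPM would, for which the tests had been planned, and the same tests were used. Dividing by the signal of 1 read gave whole reads for 100% of values in every library (tolerance 0.1 read). The lowest entry had 50 reads over the libraries.

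Genes were matched by Ensembl identifier to GENCODE M21 (13446 of 13586 identifiers had a symbol). Log2(signal + 1) was fitted with limma 3.58.1 in R 4.3.3, with a variance trend, for the 13506 entries that reached a signal of 1 in 3 or more libraries. The 3 groups shared a fit, and all AAV-Cre mice were compared with AAV-GFP in a fit of 2 groups. P-values were adjusted by Benjamini-Hochberg over all entries, and FDR under 0.1 was a call. Fold changes on this scale understate the change of low genes. Single genes were also compared by exact permutation of the mice (NumPy 2.4.6). EdgeR 4.0.16 and DESeq2 1.42.0 were run on the recovered reads as alternatives, and the fits were tested on simulated reads. The mice are separate animals, and no label ties mice of like number across groups. No libraries were duplicates (r 0.760 to 0.926 over 36 pairs). The 95% intervals are limma's, from the spread between mice of a gene pooled with that of genes at a like level. The floor of 3 reads covers counting error only.

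The 10 genes, the gene lists and the alternatives were chosen with earlier results of these data known. The rule for naming genes took all 10, any gene of the vessel and cell type lists with an FDR under 0.1, the highest 2 of each list, and the 10 entries closest to the mean of the 10 genes. Genes outside the vessel lists, with the markers of the region chosen last, are named only where a result turns on them. The genes of the deleted Snord116 cluster were not analysed here.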

Additional observations from a re-analysis of the deposited data

Results flagged for a closer look

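Slco1c1 lay on opposite sides of AAV-GFP in the AAV-Cre subsets: all 3 obese-labelled mice were above all 3 AAV-GFP mice, and all 3 nonobese-labelled mice were below them. The difference between the subsets, nonobese-labelled minus obese-labelled, was −1.56 on the log2 scale (SE 0.442). It was tested by limma and did not pass the threshold (FDR = 0.126). Tests for a mouse far from the others were made for the 10 genes among the 6 AAV-Cre mice, and none passed. The nearest was Tek in nonobese-labelled mouse 2, whose gap to the next mouse on that scale was 0.613 of the whole range against a critical value of 0.625.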

How the results depend on the processing

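Of 780 alternative values for the 10 genes in the 4 comparisons, 738 kept their direction and their side of the FDR threshold, 39 changed sign and 3 passed the threshold, all 3 for Slco1c1 between the subsets. None of the 39 had an FDR under 0.1 in the fit that changed its sign. The 10 genes had 0 to 307 reads per library, and the cause of a change was not tested beyond what each setting changes by construction. Nonobese-labelled minus AAV-GFP, Tek changed from −0.12 to 0.11 with a pseudocount of 5, 0.16 with quantile normalization, and 0.43, 0.43 and 0.42 by edgeR (quasi-likelihood test, then likelihood ratio test) and DESeq2 on whole reads. For all AAV-Cre mice, Cldn5 changed from −0.07 to 0.0017 with a pseudocount of 5 and to 0.17, 0.17 and 0.18 by the same 3 tools, and Slco1c1 from −0.18 to 0.018, 0.018 and 0.035. Leaving out both obese-labelled mice 1 and 3, planned for all AAV-Cre mice and added for the comparison of obese-labelled mice with AAV-GFP and for that of the subsets after the values were seen, gave Cldn5 0.020 in all AAV-Cre mice, Esam 0.26 in obese-labelled mice against AAV-GFP, and Kdr −0.55 and Slc2a1 0.10 between the subsets, where the median of the 10 genes became −0.86. The single library left is then assumed to vary like those of the other groups. Between the subsets 1 of the 10 genes was called by the likelihood ratio test and 1 by DESeq2, and 0 or 1 when a mouse was left out (1 without obese-labelled mouse 2).

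When each mouse was left out in turn, log2 FCs of obese-labelled mice against AAV-GFP ran from −0.24 to 0.91 for Cldn5, from −0.64 to 0.18 for Cdh5 and from −1.34 to 0.21 for Esam. For nonobese-labelled mice they ran from −0.26 to 0.55 for Pecam1, from −0.21 to 0.21 for Flt1, from −0.72 to 1.03 for Tek, from −0.025 to 0.74 for Ly6c1 and from −0.047 to 0.32 for Slc2a1, with a median over the 10 of −0.43 to 0.11 (the lowest without nonobese-labelled mouse 1). For all AAV-Cre mice they ran from −0.27 to 0.19 for Cldn5 and from −0.065 to 0.36 for Flt1. Between the subsets they ran from −0.15 to 0.51 for Kdr and from −0.76 to 0.0064 for Ly6c1, and the median over the 10 from −0.84 to −0.24, the lowest again without nonobese-labelled mouse 1, and −0.74 without obese-labelled mouse 3.

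Of the 94 genes of other vessel lists, a count taken up after the values were seen, the 2 called in obese-labelled mice against AAV-GFP became 0 at an FDR of 0.05, with a pseudocount of 0.1, without a variance trend, with only the 2 groups in a fit, and without obese-labelled mice 1 and 3 together. They became 4 (Efnb2, Ly6a, Nrp1 and Vcam1) by the likelihood ratio test, 4 by DESeq2, and 0 to 8 when a mouse was left out, 8 without obese-labelled mouse 2 and 0 without any other. Between the subsets the 0 called became 2 with a pseudocount of 5, 1 without a filter and 1 with quantile normalization. They became 2, 3 and 7 by the same 3 tools, which called 1.04%, 2.95% and 2.88% of all entries there. When a mouse was left out they became 0 to 9, 9 without obese-labelled mouse 2. The shares over all entries for the other settings are not given here.

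With the replicate number as a block, Slco1c1 between the subsets stayed at −1.56 (FDR = 0.111), 0 of the 10 genes were called in each comparison, and 4 and 3 genes of the other vessel lists were called against AAV-GFP in obese-labelled mice and between the subsets. No label pairs the mice by number. Deviations from group means of same-numbered mice correlated at −0.020 to 0.090 over 9 pairs, 0 of them above 0.1. Those of mice with other numbers correlated at −0.088 to 0.040. Of the 9 mice, 6 correlated best with a mouse of their own number, and whether the numbers carry a weak pairing was not tested.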
